A study of Arabidopsis thaliana with 12 samples.

Results

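PSAN (AT5G64040, feature 85 of the array) and PYG7 (AT1G22700, feature 920) are the 2 photosystem I genes described here, of 691 genes that had a feature of their own. They were chosen by gene name among features that GEO's platform annotation assigns to 1 gene, with the pam46 and WT values of an earlier analysis known. Their pam46 against WT differences are therefore descriptions, given with errors and without a test. The array measured total RNA of Arabidopsis thaliana in 6 pam46 samples and 6 WT samples, both of ecotype Columbia 0. The pam46 line is a mutant in which photosynthesis is altered, and the labels call the defective protein unknown. No source used here gives the tissue, age or growth conditions of the plants, or says how many plants or cultures the samples of a group came from.

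Photosystem I is the thylakoid complex that uses light to pass electrons from plastocyanin, on the lumen side, to ferredoxin, on the stroma side. Its reaction centre subunits are encoded in the plastid and most of its small subunits in the nucleus. PSAN encodes subunit PSI-N, a small peripheral protein on the lumen side that takes part in the docking of plastocyanin. PYG7 (pale yellow green 7) encodes a thylakoid protein with tetratricopeptide repeats, related to cyanobacterial Ycf37. It is no subunit of the finished complex, and plants that lack it do not accumulate photosystem I.

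Intensities in the table were linear, from 0 to a cap of 100 that 2 to 4 features reached in each sample. Summed intensities were 3297 to 3561 in pam46 samples and 3290 to 3644 in WT samples. Median intensities separated the groups, at 0.199 to 0.226 in pam46 and 0.296 to 0.341 in WT, and 196 to 317 features of a pam46 sample and 133 to 179 of a WT sample were listed at 0. Samples were therefore quantile normalized, values at or below 0.0278 were set to that floor (the 5th percentile of positive values), and log2 was taken. The groups were fitted with limma across 3438 features, and a feature counted as changed at a Benjamini-Hochberg adjusted p under 0.05. By this rule 41.1% of all features changed, 19.5% higher and 21.6% lower in pam46, and 17.1% changed when samples with consecutive numbers were averaged (3 against 3). Quantile normalization balances the directions, and the split moved with the scaling, to 373 features higher against 1301 lower without any, 382 against 1274 where sums were made equal and 899 against 642 where medians were (669 against 744 after quantile normalization). The consecutive numbers of a group (1 and 2, 3 and 4, 5 and 6) deviated together, so errors and adjusted p-values over 6 samples can be too small. Samples of the same number in pam46 and WT also deviated together, which the fit did not use and which can make errors too large.

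The PSAN subunit gene had a lower signal in pam46, by a size that depended on the scaling. In total RNA, fewer cells of a type and less RNA per cell cannot be told apart. Its deposited intensity was 4.51, 4.36, 3.497, 3.06, 3.26 and 3.32 in pam46 samples 1 to 6, against 7.62, 7.85, 4.997, 5.29, 6.19 and 5.29 in WT samples 1 to 6. Every pam46 sample lay below every WT sample, as did those of 23.6% of all features on the deposited values. Samples 1 and 2 were the highest of both genotypes. The mean intensity was 3.67 ± 0.612 in pam46 and 6.21 ± 1.252 in WT (SD, n = 6 each), and the ratio of the deposited intensities at the same sample number ran from 0.527 to 0.700 (pam46 over WT).

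**Figure D1:**
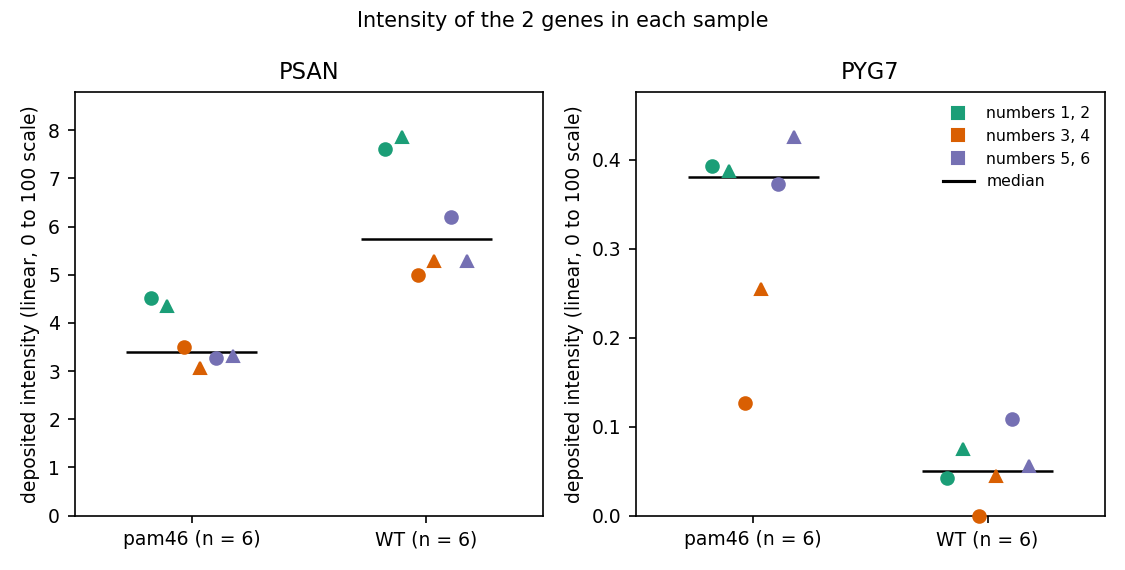
Deposited intensity (linear) of PSAN (left panel) and PYG7 (right panel) in each of the 6 pam46 and 6 WT samples; points are samples, coloured by consecutive sample numbers, and bars are group medians. PSAN medians are 3.41 in pam46 and 5.74 in WT, and PYG7 medians are 0.380 in pam46 and 0.0501 in WT, with 1 WT sample listed at 0.

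On the normalized log2 scale PSAN averaged 1.80 ± 0.22 in pam46 and 2.67 ± 0.23 in WT (SD, n = 6 each). The fitted difference was -0.86 ± 0.13 (SE), a 1.82-fold lower signal in pam46. The groups stayed apart by 0.335 on the log2 scale, and 12.5% of all features had every pam46 sample below every WT sample. A fall at least as large was fitted for 15.5% of features. All 6 same-number differences were below 0, from -1.065 to -0.70, as were those of 21.9% of features.

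The consecutive numbers of PSAN were close together. Numbers 1 and 2 differed by -0.85 between pam46 and WT, numbers 3 and 4 by -0.83 and numbers 5 and 6 by -0.92. The SD within consecutive numbers was 0.08 in pam46 and 0.11 in WT, and between their means 0.24 in both. The difference between genotypes at the same number varied less (SD 0.14 over the 6 numbers) than the samples of either genotype did.

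The size of the PSAN difference depended on the scaling. On the values as deposited it was -0.75, where the median of all features was -0.36, and with equal sums it was -0.73, where that median was -0.34. With equal medians it was -0.19, where the median of all features was 0.09. Relative to the median of all features, PSAN was thus at -0.86 after quantile normalization, -0.40 without scaling, -0.39 where sums were made equal and -0.28 where medians were. With equal medians the groups overlapped, the highest pam46 sample being at 2.45 and the lowest WT sample at 2.07, and 5 of the 6 same-number differences were below 0. On the 3 scales without quantile normalization, 33.2% to 34.4% of features had a fitted difference below that of PSAN, against 15.5% with it.

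The PYG7 assembly gene had a higher signal in pam46 and was close to the lower limit of the array in WT. Its deposited intensity was 0.393, 0.387, 0.126, 0.254, 0.373 and 0.425 in pam46 samples 1 to 6, against 0.0423, 0.0751, 0, 0.0444, 0.109 and 0.0557 in WT samples 1 to 6. The lowest pam46 sample was above the highest WT sample, which held for 5.38% of all features on the deposited values. The separation was narrow at 1 point, since pam46 sample 3 (0.126) stood just above WT sample 5 (0.109). The median was 0.380 in pam46 and 0.0501 in WT, a ratio of 7.60, and the 5 same-number ratios that could be formed ran from 3.44 to 9.29 (pam46 over WT).

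After normalization PYG7 was at -1.19, -1.21, -2.52, -1.60, -1.21 and -1.05 (log2) in pam46 samples 1 to 6, against -4.41, -3.52, -5.17, -5.07, -4.05 and -5.17 in WT samples 1 to 6. WT samples 3 and 6 were at the floor of -5.17, and no pam46 sample was. WT sample 3 was deposited at 0. WT sample 6 was deposited at 0.0557, above WT samples 1 and 4, and reached the floor through normalization. On the log2 of the deposited values the lowest pam46 sample was at -2.99 and the highest WT sample at -3.20. After normalization the groups were 0.999 apart, and 10.7% of all features had every pam46 sample above every WT sample. The fitted difference was 3.10 ± 0.34 (SE, n = 6 each), 8.58-fold higher in pam46 with the floor used. A rise at least as large was fitted for 0.204% of features, 7 of 3438 with PYG7 among them.

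All 6 same-number differences of PYG7 were above 0, from 2.31 to 4.12, as were those of 22% of features. Those at numbers 3 (2.65) and 6 (4.12) rest on WT samples set to the floor. The deposited ratio at number 6 was 7.63 (pam46 over WT). Numbers 1 and 2 differed by 2.76, numbers 3 and 4 by 3.06 and numbers 5 and 6 by 3.48. The SD within consecutive numbers was 0.38 in pam46 and 0.58 in WT, and between their means 0.52 in pam46 and 0.58 in WT. The scatter of PYG7 was therefore wider than that of PSAN, and pam46 samples 3 and 4 were the lowest of that genotype.

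**Figure D2:**
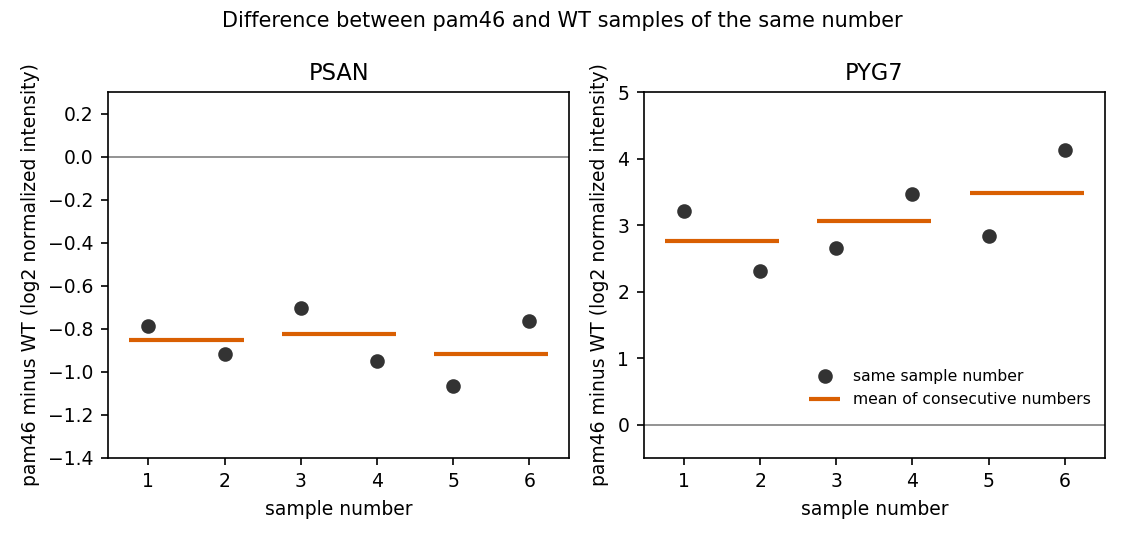
Difference pam46 minus WT in log2 normalized intensity at each sample number (points) and for the means of consecutive numbers (bars), for PSAN (left) and PYG7 (right); the grey line marks 0. PSAN lies between -1.065 and -0.70 and PYG7 between 2.31 and 4.12. The WT samples of PYG7 at numbers 3 and 6 were at the floor.

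Because 2 WT samples of PYG7 were at the floor, its fold change depended on where the floor was set. With the floor at the 1st percentile (0.00123), which held 1 WT sample, the log2 difference was 3.89. With the floor at the 20th percentile (0.103), which held all 6 WT samples and no pam46 sample, it was 1.81. Scaling moved it less, to 2.48 without any scaling, 2.51 where sums were made equal and 2.99 where medians were. Relative to the median of all features PYG7 was at 2.83 as deposited and 2.90 with equal medians. On each scale without quantile normalization, 11 features had a fitted difference above that of PYG7, against 6 with it.

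**Figure D3:**
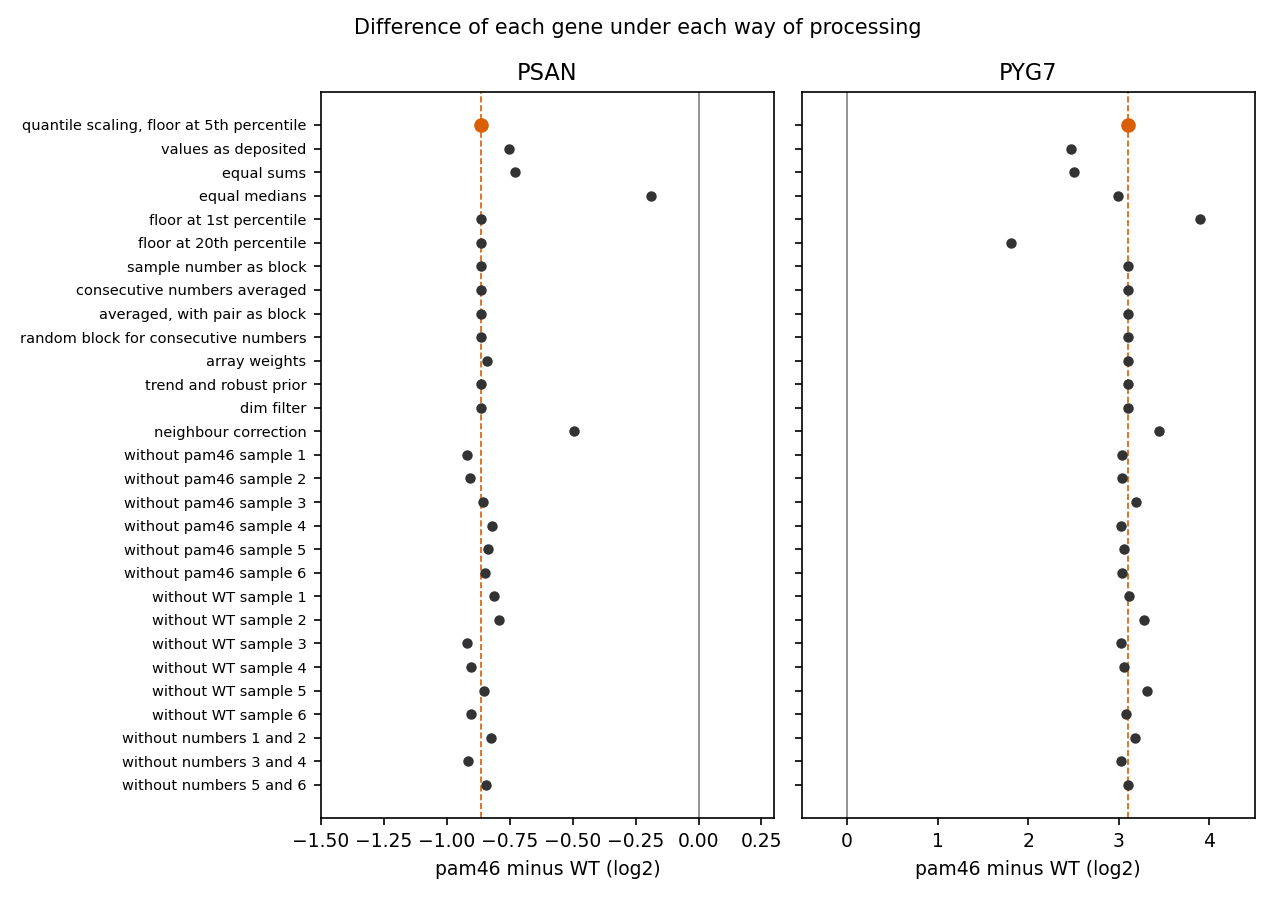
Log2 difference pam46 minus WT of PSAN (left) and PYG7 (right) under the processing used (orange point and dashed line) and under each of 28 alternatives (black points); the grey line marks 0. PSAN lies between -0.92 and -0.19 and PYG7 between 1.81 and 3.89, and no alternative run turned either sign. Alternatives with blocks, averages, another prior or the dim filter leave the value in place by construction.

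The difference between the log2 intensities of PYG7 and PSAN within a sample removes any factor common to that sample. Its level compares 2 features and has no meaning of its own, but its change between samples does. It was -4.25 to -2.75 in pam46 samples and -7.64 to -6.49 in WT samples. The mean was -3.27 ± 0.53 in pam46 and -7.23 ± 0.49 in WT (SD, n = 6 each), so with the floor used the ratio of PYG7 to PSAN was 15.6-fold higher in pam46 (3.97 on the log2 scale). This change was 4.76 with the floor at the 1st percentile and 2.68 with it at the 20th. Without quantile normalization, which is not a common factor, this change was 3.23 on the values as deposited. The lowest pam46 sample and the highest WT sample were 2.24 apart in this ratio after normalization and 1.04 apart in the deposited values, where WT sample 3 of PYG7 was at 0.

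The other genes of photosystem I were looked up in 5 lists with 59 entries, chosen by function: the subunits, the antenna, factors for assembly and for expression of the plastid reaction centre genes, electron carriers with cyclic flow and state transitions, and the NDH complex, which associates with photosystem I. Of these, 5 had a feature of their own, the 2 genes above and 3 others, and 2 more were annotated only on features with several genes, which were not used. Among the 3 others 1 fell, none rose and 2 did not pass, beside 41.1% of all features changed. Their median log2 difference was 0.07, and that of all features was 0. PSAN was the only one of 12 subunit genes with a feature of its own, and none of the 6 antenna genes and none of the 12 carrier, cyclic flow and state transition genes had one.

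NDHN, a subunit of the NDH complex of cyclic electron flow, fell in pam46. Its deposited intensity was 0.187 to 0.253 in pam46 and 0.369 to 0.448 in WT, and the normalized log2 difference was -0.31 ± 0.10 (SE, limma adjusted p = 0.0235). It was -0.85 without scaling and -0.83 where sums were made equal, where the medians of all features were themselves -0.36 and -0.34. With equal medians it was -0.29, where that median was 0.09. With consecutive numbers averaged it did not pass (adjusted p = 0.140). NDHS, the ferredoxin-binding subunit of the same complex, was at 0.07 ± 0.22 (adjusted p = 0.839), at -0.13 without WT sample 6, the lowest of its group, and at 0.72 with equal medians, where it passed (adjusted p = 0.0324). ATAB2, a factor for translation of photosystem mRNAs in the plastid, was at 0.40 ± 0.35 (adjusted p = 0.396), with a deposited intensity of 0.0396 ± 0.0220 in pam46 and 0.0592 ± 0.0357 in WT (SD, n = 6 each). On the values as deposited the ATAB2 difference had the opposite sign (-0.44), where the median of all features was -0.36. ATAB2 was dim, with 2 WT samples at the floor, and its difference vanished with the floor at the 20th percentile.

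Of 13 photosystem II subunit and assembly genes, the other photosystem, 3 had a feature of their own. PSBW, a small subunit of that complex, rose by 0.69 ± 0.16 (SE, limma adjusted p = 0.00567, and 0.0967 with consecutive numbers as a random block). The other 2 did not pass, beside 19.5% of all features changed as higher and 41.1% in either direction. The PSBW difference was 1.41 with equal medians and 1.09 with neighbour correction. PSBY was at -0.38 ± 0.15 (adjusted p = 0.0714, 0.0159 with the sample number as a block, and 0.0984 with that block on averaged consecutive numbers), and was above 0 where medians were made equal (0.22). PSB27, an assembly factor of the lumen, was at 1.28 ± 0.83 (adjusted p = 0.244), with deposited intensities of 0.548 to 1.56 in pam46 and 0.115 to 2.10 in WT. Its same-number differences were above 0 in 4 and below 0 in 2, and the fitted value was 0.85 without WT sample 3, 0.54 without numbers 3 and 4 and 2.28 without numbers 5 and 6. A difference between genes of the 2 photosystems was not tested. No gene of the list of 7 senescence and seed markers had a feature of its own, so these were not analysed here.

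**Figure D4:**
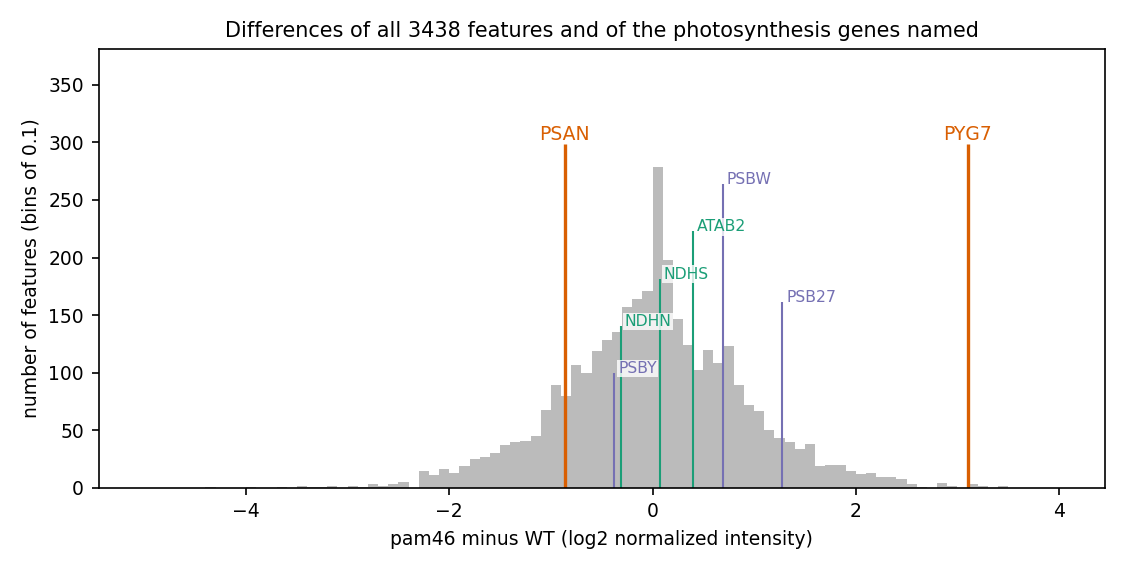
Histogram of the log2 difference pam46 minus WT over all 3438 features (bins of 0.1), with lines at PSAN and PYG7 (orange), at other genes of photosystem I lists (green) and at photosystem II genes (purple); line heights carry no value. PSAN at -0.86 lies on the left shoulder and PYG7 at 3.10 in the right tail.

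The genes most like each of the pair were taken by the root-mean-square difference between log2 profiles over the 12 samples, each profile centred on its own mean, among 690 other genes. For PSAN these were AT4G00590 (0.135), AT1G50390 (0.165), AT3G12000 (0.183), AT5G40070 (0.192) and AT1G03810 (0.202), where the median over all genes was 0.676 and PSAN itself varied by 0.479 about its mean. Their log2 differences lay between -1.035 and -0.69. For PYG7 they were AT2G30100 (0.646), AT3G58830 (0.688), AT5G19050 (0.752), AT2G31800 (0.775) and ATSIK (0.800), where the median was 1.68 and PYG7 itself varied by 1.65. AT3G58830 encodes PGPP1, a phosphatase in the synthesis of the thylakoid lipid phosphatidylglycerol. The other genes of both lists are not described here, and a shared function was not tested. The log2 differences of these 5 lay between 2.065 and 2.91, all below that of PYG7, and AT5G19050 and AT2G31800 also had WT samples at the floor (2 and 5 of 6). Likeness over 12 samples mostly reflects the difference between genotypes, and the samples share their numbering.

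**Figure D5:**
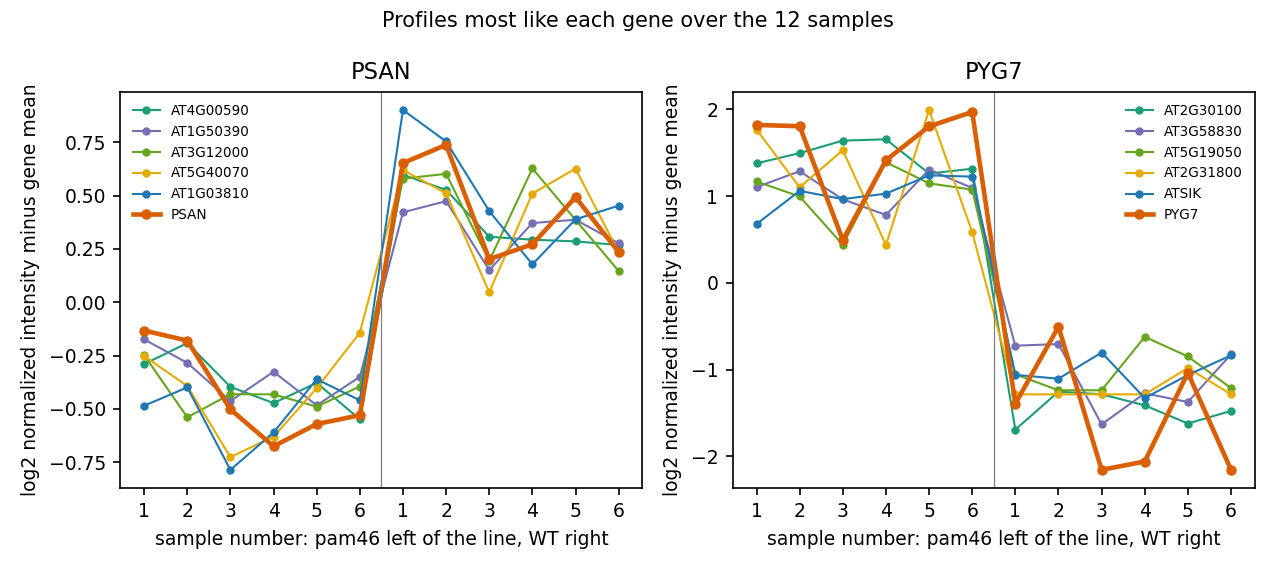
Log2 normalized intensity minus the gene's mean in each sample, pam46 samples 1 to 6 left of the grey line and WT samples 1 to 6 right of it, for PSAN (left panel, thick orange) and PYG7 (right panel, thick orange) with the 5 genes most like each (thin lines). PYG7 dips at pam46 sample 3, and in WT it reaches lower than the 5 genes like it.

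Features next in number were read beside the pair, since a neighbour on the array can add to a dim signal, although the layout is not given. Beside PSAN, features 83 and 86, which carry no gene name, were at 0.02 ± 0.09 and -0.06 ± 0.15 (log2 difference ± SE, limma adjusted p = 0.892 and 0.798). Beside PYG7, the unnamed feature 919 rose by 0.91 ± 0.15 (adjusted p = 0.000547), with a deposited intensity of 2.04 ± 0.348 in pam46 and 1.11 ± 0.206 in WT (SD, n = 6 each). Feature 921 on its other side fell by 0.59 ± 0.12 (adjusted p = 0.00254). The highest of the 24 features nearest to PYG7 was at 1.18, below PYG7, and 5 of the 24 nearest to PSAN had a difference at or below that of PSAN. The median of these 24 features was -0.23 for PSAN and -0.40 for PYG7, against 0 for all features. Corrected by the 24 nearest features, PSAN was at -0.50 and PYG7 at 3.45. The part of feature 919 in the PYG7 values was not tested.

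Other transcripts could also reach these features. In the RefSeq table of assembly TAIR10.1, used for names only, PSAN overlaps 1 other gene, AT5G64030, and PYG7 overlaps 2, AT1G22690 and AT1G05763. None of these had a feature of its own, and no source used here says whether the array tells the strands apart.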

How the data were processed

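The authors deposited 1 linear intensity per feature and sample. Per the labels, total RNA was measured, and no source used here gives the background correction, normalization or layout of the array. The 12 samples were assigned to pam46 and WT by title. Of 3439 features, GEO's platform annotation names 1 gene for 692, and where 2 features shared a gene the one with the higher mean was kept, leaving 3438. All 12 samples were quantile normalized because the highest median was 1.71 times the lowest, floored, put on the log2 scale and fitted with limma 3.58.1 (lmFit, eBayes, two-sided) in R 4.3.3, with Benjamini-Hochberg adjustment over all features. The fit was tested on simulated log2 values with independent samples, without the normalization and floor steps. That test could not show the effect of scaling or of samples that deviate together. The genes and gene lists were chosen with earlier results of these data known. Named genes are the pair, every list gene with its own feature, the 5 profiles most like each of the pair, and the adjacent features.

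Deviations from group means, correlated across features, were 0.24 to 0.57 between pam46 and WT samples of the same number, all above the 0.1 set for pairing, and 0.26 to 0.67 between consecutive numbers of a group. On this basis numbers were treated as pairing the samples, but only in same-number differences and in alternatives with a block for the number. They recur in both groups' titles, whose meaning is unstated. The fit itself used no such block, and 1658 features changed with it against 1413 without. P-values reflect the spread among these samples only, and it may be technical. Precision is limited by the number of arrays. Alternatives changed the scaling, the floor, the use of sample numbers, array weights, the prior, a filter on dim features, a correction by the 24 nearest feature numbers, and the samples included.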

Additional observations from a re-analysis of the deposited data

Results flagged for a closer look

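Dixon's 95% criterion, which compares the distance of the extreme sample from its neighbour with the range of a group, was applied to 36 groups of 6 samples. It picked out 2, where chance picks about 1 in 20, and neither was PSAN or PYG7. NDHS had 1 low WT sample, number 6, with a log2 normalized intensity of 1.34 against 2.44 to 2.66 in the rest of WT. AT2G31800, one of the profiles like PYG7, had WT sample 5 at -4.87, with the rest of WT on the floor (-5.17), where a single value above it always meets the criterion.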

How the results depend on the processing

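In 28 alternatives PSAN kept its sign throughout and moved by more than the spread between samples in 2, to -0.19 with equal medians and -0.50 with neighbour correction. PYG7 kept its sign and moved so in 3, to 2.48 on the values as deposited, 3.89 with the floor at the 1st percentile and 1.81 with it at the 20th. Their difference (3.97) moved to 3.23 as deposited, 3.24 with equal sums, 3.18 with equal medians, and 4.76 and 2.68 with the floor at the 1st and 20th percentile. With 1 sample left out PSAN was -0.92 to -0.79, PYG7 3.03 to 3.32 and their difference 3.85 to 4.17. The blocks, the averages, the trend and robust prior and the dim filter cannot change a difference of means in this balanced design. They left both values as they were (-0.86 and 3.10), which tells nothing of their stability. Nor could the floor change PSAN, which lay above it in every sample. The count of changed features (1413) was 587 with consecutive numbers averaged, 693 with these averages and a block for the pair, and 922 with a random block. The first pair of these have fewer samples.

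The 1 changed gene among the 3 other photosystem I list genes, NDHN, was lost, leaving 0, with averaging with or without the block, the random block, trend and robust prior, the dim filter, neighbour correction, or any pair of numbers left out (adjusted p 0.0566 to 0.182). The count was 2 with equal medians, where NDHS passed (0.72, adjusted p = 0.0324). The cause was not tested. Signs turned for ATAB2 (-0.44 as deposited and with equal sums, -0.066 with equal medians, -0.038 without numbers 5 and 6), NDHS (-0.13 to 0.14 with 1 sample left out, below 0 without WT sample 6, and -0.036 without numbers 5 and 6) and PSBY (0.22 with equal medians, 0.27 with neighbour correction). The PSBW call was lost with averages and block (adjusted p = 0.0605), the random block (0.0967) and without numbers 3 and 4 (0.0542). PSBY passed as lower with the replicate block and 4 other alternatives, and not with the block on averages (adjusted p = 0.0984) or the random block (0.176).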
